A study of Mus musculus with 8 samples.

Results

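The circadian clock genes Arntl, Clock, Per1, Per2, Per3, Cry1, Nr1d1 and Nr1d2 and the clock output genes Dbp and Tef were followed in normal and dystrophic mouse diaphragm. The members were taken by name from the probe sets (groups of short probes for one transcript) that the array's annotation gives exactly 1 gene symbol. All 10 genes were measured, by 18 probe sets, of 12393 genes so named on the array. Total RNA from diaphragm muscle of 8-week-old mice was hybridised to 8 Affymetrix expression arrays. The normal group was control mice for the dy/dy strain and the dystrophic group was dy/dy mice, whose muscular dystrophy comes from a deficiency of laminin, and each group had 4 arrays. Each array held muscle pooled from 3 mice. That makes 12 mice in each group if no mouse was shared between pools, which the labels do not state. The labels used here name the normal mice only as controls and state no strain background, sex or hour of tissue collection, which matters for rhythmic genes. Variation between individual animals cannot be seen in pools.

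Arntl, the activator at the head of the clock loop, had a lower signal in every dystrophic pool than in any normal pool, by 1.72-fold on the group means. By their brightest probe sets, the output factors Dbp and Tef stood 2.13-fold and 1.49-fold higher on the group means in dystrophic diaphragm. Per3 stood 1.44-fold higher by its brightest probe set. The other probe sets of Tef and Per3 did not follow the brightest closely. The brightest probe sets of Clock, Per1, Nr1d1 and Nr1d2 had log2 differences between -0.24 and 0.10, and the second tested probe sets of Clock and Nr1d2 were at -0.37 and 0.14. None of these differences passed the test across all probe sets, in which 0 of 12 tested member probe sets were called (limma, Benjamini-Hochberg adjusted p under 0.05) and 0.494% of all 13575 tested probe sets were. At an unadjusted p under 0.05, 5 of the 12 member probe sets passed, against 9.72% of all probe sets. These 5 were the Arntl probe set, which was lower, and 4 that were higher, of Dbp (both of its probe sets), Tef and Per3. The 2 Dbp probe sets followed each other across the pools (Pearson r = 0.97). The members were chosen with earlier results of these data known, so the count is a description only.

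The clock is a feedback loop present in nearly every cell. The proteins ARNTL (also called BMAL1) and CLOCK pair up and switch on genes through DNA sites called E-boxes. Their targets include Per and Cry genes, whose proteins return to repress the pair, and Nr1d1 and Nr1d2, which encode the receptors REV-ERB alpha and beta that repress Arntl through ROR sites. Dbp and Tef encode factors of the PAR bZIP family, which carry the rhythm outward through sites called D-boxes. In a day-night cycle the transcripts of Dbp, Tef, Nr1d1, Nr1d2 and Per genes run roughly opposite to that of Arntl. Skeletal muscle has its own clock, which is set by light through the brain and by feeding and activity, and it drives genes of metabolism and muscle identity.

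These sites can be seen in the RefSeq promoter windows of the members, which run from 250 bases before to 50 bases after an annotated start (build GRCm38.p6) and were available for 9 of the 10 genes, in 14 windows. They are shown so that a reader can see the letters of the sites named above in the members that hold them. Each sequence reads 5' to 3' on the gene's strand, and capitals mark a motif with 30 bases on each side, or fewer where the window ends.
Arntl, ROR core at base 32 after the start, chr7:113207512-113207560, plus strand: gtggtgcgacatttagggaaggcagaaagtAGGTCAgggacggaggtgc
Per1, E-box and ROR core, chr11:69098753-69098847, plus strand: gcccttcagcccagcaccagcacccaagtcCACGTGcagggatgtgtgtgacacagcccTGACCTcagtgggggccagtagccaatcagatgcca
Cry1, E-box variant and E-box, chr10:85185079-85185163, minus strand: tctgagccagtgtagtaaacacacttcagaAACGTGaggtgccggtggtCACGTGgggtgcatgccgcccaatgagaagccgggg
Per3, D-box at 2 places, chr4:151044786-151044900, minus strand: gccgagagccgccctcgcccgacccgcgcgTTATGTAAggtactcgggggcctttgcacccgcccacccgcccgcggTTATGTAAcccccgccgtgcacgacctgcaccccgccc
Tef, E-box of the upstream start, chr15:81802516-81802581, plus strand: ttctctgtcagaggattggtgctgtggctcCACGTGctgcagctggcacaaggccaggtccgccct
Tef, E-box of the downstream start, chr15:81811246-81811311, plus strand: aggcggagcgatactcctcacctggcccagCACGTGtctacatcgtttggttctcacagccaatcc

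The motifs were searched on both strands. The E-box CACGTG was found in 4 of the 14 member windows, of 3 genes (Per1, Cry1 and Tef), and in 7.15% of all 32851 windows of that length. The variant CACGTT was found in 2 member windows, of Cry1 and Nr1d1, and in 4.68% of all windows. The D-box, searched as TTATGTAA or TTACGTAA, was found in the Per3 window alone among the members, and in 1.06% of all windows. The ROR core AGGTCA was found in 4 member windows, of Arntl, Clock, Per1 and Nr1d2, and in 16.3% of all windows. The Dbp window held none of these letters. Such matches describe the sequence and are not evidence of binding.

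All 8 arrays carried strong muscle fibre transcripts. The summed signal of 12 fibre markers, including Acta1, Ckm and Mb, was 200775 to 307323 in normal and 196529 to 227860 in dystrophic pools, with 0 of 12 called. The median log2 difference of the fibre markers was -0.21, and 2 of the 12 lay above 0. Macrophage and fibroblast markers differed more, with medians of 0.76 and 0.66. Of 12 macrophage markers 11 were tested, all 11 lay above 0, and 2 (Mpeg1 and Cd68) were called higher. The macrophage count was 4 with array weights, 0 with the dimmest 60% left out, and 1 without any one of dystrophic replicates 2, 3 and 4. Their summed signal was 7077 to 9680 in normal and 12198 to 14521 in dystrophic pools. Of 8 fibroblast markers all 8 lay above 0, and 2 (Lum and Col1a2) were called higher, with sums of 27691 to 34767 and 40424 to 51849. The fibroblast count was 1 without normal replicate 1 or any one of dystrophic replicates 2, 3 and 4. The summed signal of 9 liver markers was 57472 in dystrophic replicate 3 and 1209 to 6562 in the other 7 pools. On the principal components of all tested probe sets, normal replicate 4 and dystrophic replicate 3 lay farthest apart on the first, at -36.13 and 33.97, while the remaining 6 arrays spanned -11.47 to 12.52. Normal replicate 4 had also been scaled by the authors to a trimmed mean of 400.2 where the other arrays had 500.2, and all arrays were brought to one level here. Lama2, the laminin gene that the disease affects, had a mean of 846 ± 101 in normal and 270.0 ± 46.1 in dystrophic pools (SD, n = 4). It was called lower, at -1.60 on the log2 scale (SE 0.15, limma adjusted p = 8.91e-04). In bulk muscle, fewer cells of a type and less RNA per cell cannot be told apart.

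**Figure D1:**
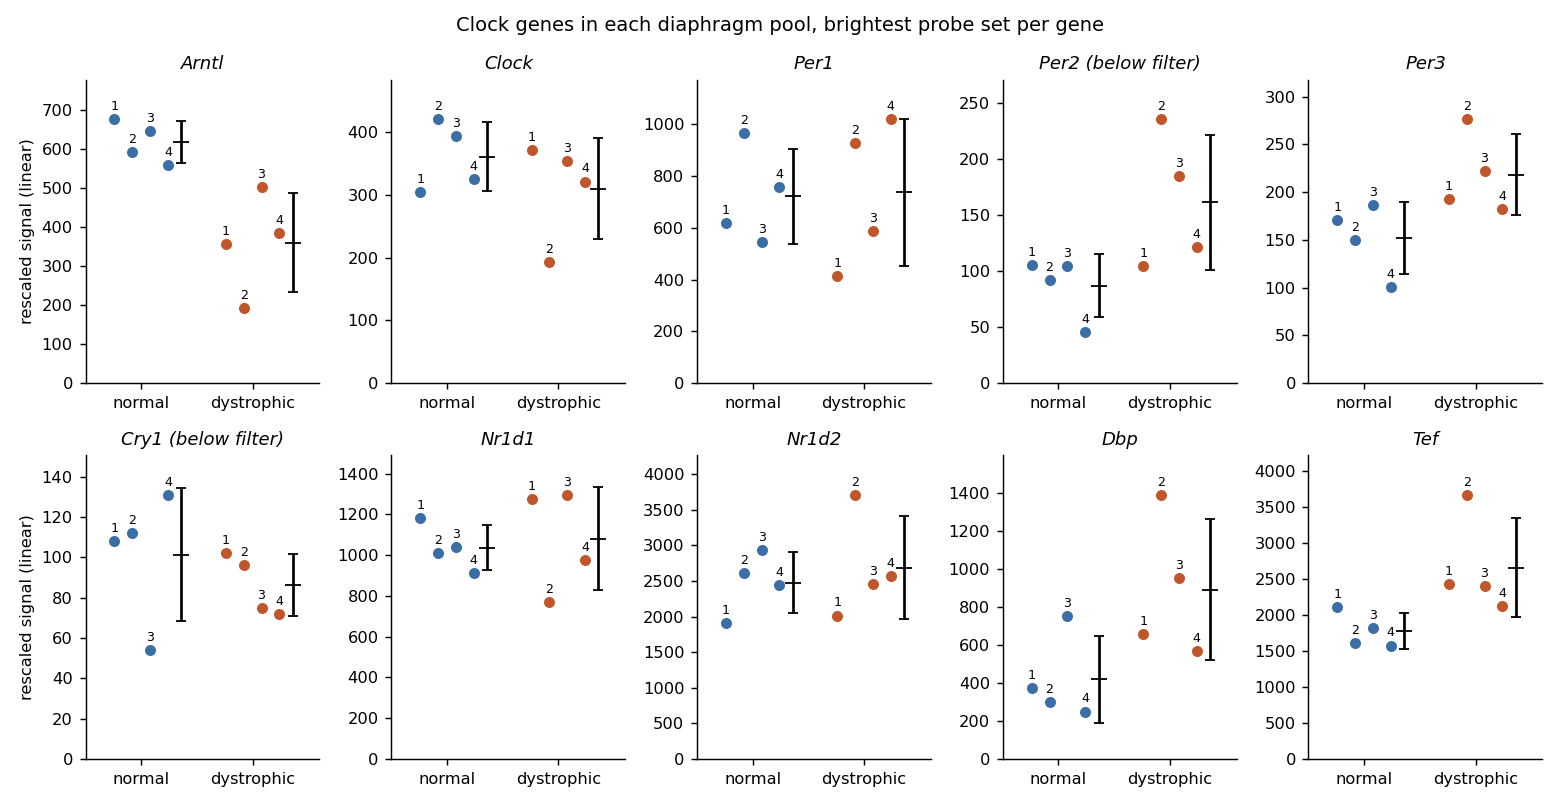
Signal of each clock gene on a linear axis from 0, after all arrays were brought to one trimmed mean, in the 4 normal (blue) and 4 dystrophic (orange) pools, numbered by replicate, with the brightest probe set per gene. Black bars give mean ± SD. The Arntl points of the groups do not overlap, and dystrophic replicate 2 lies at the end of the range in 8 of 10 genes.

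Arntl, which encodes the activator BMAL1, was measured by 1 probe set (1425099_a_at). Its signal was 676, 591, 647 and 558 in normal replicates 1 to 4 and 358, 193, 503 and 386 in dystrophic replicates 1 to 4. The normal pools lay within 1.21-fold of each other and the dystrophic pools within 2.60-fold, with replicate 2 the lowest and replicate 3 the nearest to the normal pools. The group means were 618 ± 53.3 and 360 ± 128 (SD, n = 4). The log2 difference, dystrophic minus normal, was -0.82 (SE 0.23, 95% interval -1.34 to -0.31, limma adjusted p = 0.205). For this single probe set a two-sided exact permutation test returned p = 0.0286, which 4 against 4 pools cannot go below. Arrays of like poly-A spike-in level (controls added to the RNA) formed 3 groups. The difference was -1.02 within the first, which held 2 normal and 2 dystrophic arrays, replicates 2 and 4 of each. It was -0.35 and -0.89 within the others, which held 1 normal and 1 dystrophic array each, replicate 3 and replicate 1 in that order. Groups that do not overlap were found for 2 of the 12 tested member probe sets, of Arntl and Tef, and for 6.4% of all tested probe sets. Without dystrophic replicate 2 the difference was -0.57, and without normal replicate 4 and dystrophic replicate 3 together it was -1.05.

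Clock, the partner of ARNTL, differed less. Its brighter probe set (1418659_at) had 304, 420, 394 and 325 in normal and 371, 193, 354 and 321 in dystrophic pools. The groups overlapped, and dystrophic replicate 2 was again the lowest pool. The log2 difference was -0.24 (SE 0.21, 95% interval -0.69 to 0.21, limma adjusted p = 0.778), and -0.04 without dystrophic replicate 2. The other Clock probe set (1418660_at) was at -0.37 (SE 0.22, adjusted p = 0.635), with its highest signal, 435, in normal replicate 1, and its values across pools had a Pearson r of 0.09 with the first probe set. It was at -0.19 without normal replicate 1 and -0.57 without normal replicate 3.

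**Figure D2:**
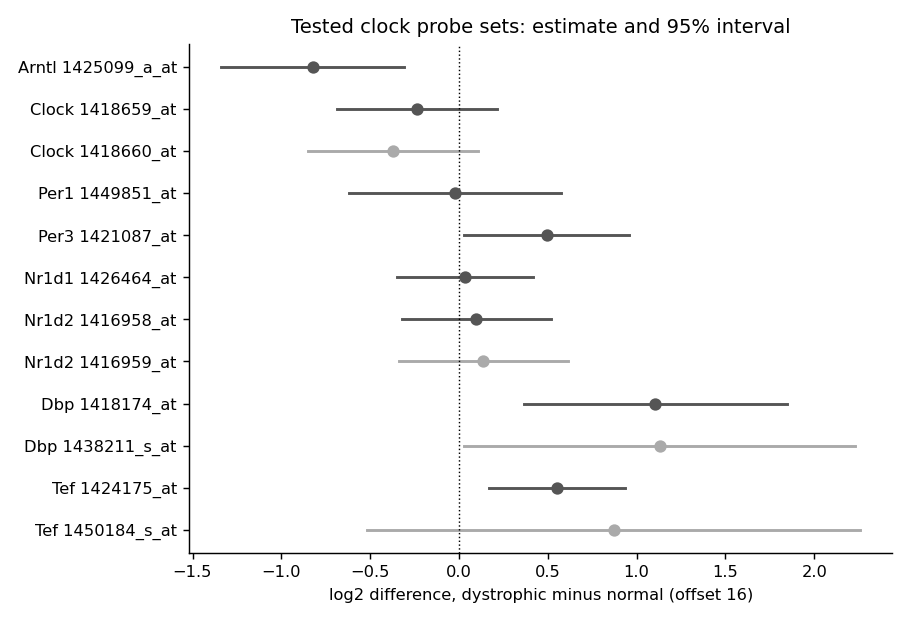
Log2 difference, dystrophic minus normal, with its 95% interval (limma) for the 12 tested clock probe sets, dark where the probe set is the brightest of its gene. The intervals of Arntl, Per3, both Dbp probe sets and the brightest Tef probe set lie on 1 side of 0 before adjustment, and no probe set passed after adjustment.

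Dbp, a transcriptional activator of the PAR bZIP family and one of the most rhythmic transcripts known, had the largest difference among the tested members. Its brighter probe set (1418174_at) gave 371, 300, 755 and 250 in normal and 656, 1391, 953 and 571 in dystrophic pools. Normal replicate 3 lay above dystrophic replicates 1 and 4, so the groups overlapped. The means were 419 ± 230 and 893 ± 370 (SD, n = 4). On the log2 scale dystrophic pools stood 1.11 above normal pools (SE 0.34, 95% interval 0.36 to 1.85, limma adjusted p = 0.252). By exact permutation, two-sided, p was 0.0857. The second probe set (1438211_s_at) followed the first across the pools (Pearson r = 0.97) and differed by 1.13 (SE 0.50, adjusted p = 0.5). It ran from 143 to 681 in normal and from 314 to 1349 in dystrophic pools. Within the spike-in level groups the difference of the brighter probe set was 1.65, 0.33 and 0.80, where 0.33 and 0.80 each compare 1 normal with 1 dystrophic array. Dystrophic replicate 3, the pool with the high liver signal, had the second highest Dbp, and the difference without that pool was 1.05. The largest value under the alternatives was 1.42, without normal replicate 3, with adjusted p = 0.0775 (0.0775 to 0.678 over all alternatives).

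Tef, the second PAR bZIP factor, had a smaller and more even difference. The brightest probe set (1424175_at) gave 2113, 1610, 1821 and 1574 in normal and 2435, 3664, 2396 and 2123 in dystrophic pools. The groups did not overlap, although dystrophic replicate 4 and normal replicate 1 lay close together at the boundary. The log2 difference was 0.55 (SE 0.18, 95% interval 0.17 to 0.93, limma adjusted p = 0.282), with p = 0.0286 by two-sided exact permutation. Within the spike-in level groups it was 0.80, 0.39 and 0.20, where 0.39 and 0.20 each compare 1 normal with 1 dystrophic array. Without dystrophic replicate 2 the log2 difference was 0.39. The other Tef probe sets did not follow this one closely (Pearson r = 0.42 for 1450184_s_at and -0.21 for 1438033_at). Probe set 1450184_s_at was at 0.87 (SE 0.63, adjusted p = 0.721), and its signal was 19.99 in normal replicate 4 against 290 to 460 in the other 7 pools. Without normal replicate 4 it was at 0.04. Probe set 1438033_at, at 66.6 to 127 over the 8 pools, lay below the level at which probe sets were tested. Its log2 difference was -0.07.

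Among the repressors, the estimates for the Per genes differed. Per3 (1421087_at), a period gene with a modest role in the core loop, gave 171, 150, 187 and 101 in normal and 192, 276, 222 and 182 in dystrophic pools. Only dystrophic replicate 4 fell inside the normal range, just below normal replicate 3. The log2 difference was 0.49 (SE 0.21, 95% interval 0.03 to 0.96, limma adjusted p = 0.481), with p = 0.0571 by two-sided exact permutation. Without normal replicate 4, the lowest pool, it was 0.33. Its remaining probe sets (1460662_at and 1421086_at) were too dim to be tested, at 45.8 to 92.2 and 7.41 to 75.1. They had negative correlations with the first (Pearson r = -0.20 and -0.45). Their log2 differences were -0.20, opposite in sign to the first, and 0.15.

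Per1, an E-box target that hormones and light also induce acutely, had an estimate near 0 with a wide interval. Its 1 probe set (1449851_at) gave 617, 964, 545 and 758 in normal and 415, 925, 586 and 1018 in dystrophic pools. The low and high pools were mixed between the groups, with both extremes in dystrophic pools. In normal and dystrophic pools alike, replicates 2 and 4 (the first spike-in level group), at 758 to 1018, lay above replicates 1 and 3, at 415 to 617. This pattern was noticed after the values were seen, and its cause was not tested. With the spike-in level group as a block the SE of the Per1 difference was 0.156. The log2 difference was -0.02 (SE 0.27, 95% interval -0.62 to 0.57, limma adjusted p = 0.990), and its sign turned under 7 of 21 alternatives.

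Per2, a core repressor, was below the level of the test. Its brighter probe set (1417602_at) gave 105, 91.7, 105 and 45.5 in normal and 104, 235, 184 and 121 in dystrophic pools. Dystrophic replicate 1 lay among the normal pools and the other 3 dystrophic pools above all of them. The means were 86.8 ± 28.3 and 161 ± 60.2 (SD, n = 4), a difference of 0.77 on the log2 scale with no fitted test, and 0.55 without normal replicate 4. The second Per2 probe set (1417603_at) was at -0.02, from 24.1 to 167 over the 8 pools. Both of these ends were dystrophic pools, and the difference was 0.44 without replicate 1, the lowest, and -0.29 without replicate 2, the highest. Cry1, the partner of the PER proteins, was also below that level, at 108, 112, 54.1 and 131 in normal and 102, 96.3, 74.98 and 71.8 in dystrophic pools. The groups overlapped, with both extremes in normal pools, and the log2 difference was -0.16. It was -0.39 without normal replicate 3, -0.03 without normal replicate 4, and 0.02 with both normal replicate 4 and dystrophic replicate 3 left out.

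The REV-ERB receptors had estimates near 0. Nr1d1 (1426464_at) gave 1184, 1012, 1039 and 913 in normal and 1278, 771, 1296 and 977 in dystrophic pools. Its dystrophic pools lay on both sides of the normal range, and the log2 difference was 0.03 (SE 0.17, 95% interval -0.35 to 0.42, limma adjusted p = 0.975). Nr1d2 (1416958_at) gave 1909, 2611, 2940 and 2450 in normal and 2015, 3708, 2456 and 2569 in dystrophic pools. Dystrophic replicate 2 alone lay above the normal range, and the log2 difference was 0.10 (SE 0.19, 95% interval -0.32 to 0.52, limma adjusted p = 0.922). Its second probe set (1416959_at), at 207 to 375, followed the first (Pearson r = 0.81) and was at 0.14 (SE 0.22). The upper interval ends of Nr1d1 and Nr1d2 lie below the Dbp estimate of 1.11 but above the lower end of its interval, 0.36. The difference between genes was not tested.

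**Figure D3:**
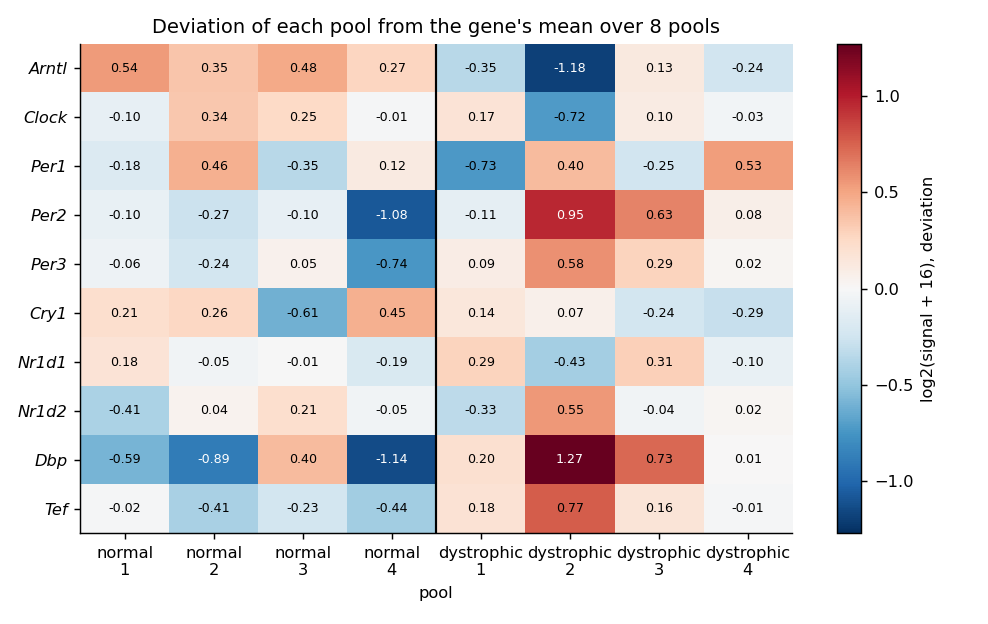
Deviation of each pool from the gene's mean over 8 pools, on the log2(signal + 16) scale, for the 10 clock genes in the order activators, repressors, REV-ERB receptors and output factors. Arntl and Dbp have deviations of opposite sign in 6 of 8 columns, all but normal replicate 3 and dystrophic replicate 3. In dystrophic replicate 4 the Dbp deviation is only 0.0078. The deviations include the difference between groups, and with group means subtracted Pearson's r of Arntl with Dbp was -0.27. Dystrophic replicate 2 holds the largest Arntl and Dbp deviations, at -1.18 and 1.27.

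Pools of 1 group differed from each other in these genes by more than most transcripts did. The SD within groups exceeded the median of all tested probe sets, 0.24 on the log2 scale, in 12 of 12 tested member probe sets. Of these, 4 lay in the top 10%. They were both Dbp probe sets (Pearson r = 0.97 with each other), the Per1 probe set and Tef probe set 1450184_s_at. The SD of that Tef probe set was 1.21, with a signal of 19.99 in normal replicate 4. The brighter Dbp probe set had an SD of 0.62, at the 96.7th percentile, Per1 0.48, at the 92.6th, and Arntl 0.40, at the 85.6th. Nr1d1, at 0.27, and the brightest Tef probe set, at 0.28, lay nearer the middle, at the 58.2nd and 60.5th percentiles. For the brightest probe sets across all 8 pools, the highest signal was 5.57 times the lowest for Dbp, 3.49 times for Arntl and 2.33 times for Tef. It was 1.68 times for Nr1d1 and 1.94 times for Nr1d2.

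One pool stood at the end of the range for most members. Dystrophic replicate 2 had the highest signal of all 8 pools for Per2, Per3, Nr1d2, Dbp and Tef and the lowest for Arntl, Clock and Nr1d1, 8 of 10 genes. This pool was singled out after its values were seen. Over all tested probe sets it held the highest or the lowest value in 18.8%, and its marker sums for macrophage, liver and fibre genes lay inside the range of the other pools, while its fibroblast sum was the highest, at 51849. At the opposite end, normal replicate 4 had the lowest signal for Per2, Per3, Dbp and Tef and the highest for Cry1, 5 of 10 genes, and held an extreme in 38.3% of all tested probe sets.

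Arntl was set against each of the other 9 members over the 8 pools, with exact two-sided permutation tests adjusted over these 9 relations. With Tef, Pearson's r was -0.85 (exact permutation p = 0.0124, adjusted p = 0.112) and Spearman's rho was -0.74 (exact permutation p = 0.0458, adjusted p = 0.412). With Dbp, r was -0.67 (exact permutation p = 0.063, adjusted p = 0.189) and rho -0.50 (exact permutation p = 0.216, adjusted p = 0.649). With Clock, r was 0.75 (exact permutation p = 0.0552, adjusted p = 0.189) and rho 0.31 (exact permutation p = 0.462, adjusted p = 0.690). With the other members r ran from -0.63 (Per3) to 0.49 (Nr1d1), and none of the 9 relations passed. These r values over all 8 pools include the difference between groups. The pools farthest from the median of Arntl were dystrophic replicates 1 and 2. Leaving them out narrows the range of Arntl and removes part of the dystrophic group. A smaller r without them therefore cannot show that the relations rest on these pools. Without these pools r was -0.35 with Tef, -0.27 with Dbp and 0.25 with Clock. It was then -0.59 with Per1 and 0.22 with Cry1, beside -0.25 and -0.04 over all 8 pools. With group means subtracted first, r was -0.65 with Tef (exact permutation p = 0.290), -0.27 with Dbp (exact permutation p = 0.595) and 0.85 with Nr1d1 (exact permutation p = 0.033, adjusted p = 0.297). Spearman's rho on these centred values was -0.24 with Tef, 0.07 with Dbp and 0.69 with Nr1d1 (exact permutation p = 0.674, 0.903 and 0.151). Without dystrophic replicates 2 and 3, the farthest in centred Arntl, r was 0.245, 0.241 and 0.437. That step again narrows the range of Arntl. The spike-in level groups hold 2 to 4 arrays each, too few for a correlation within them.

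**Figure D4:**
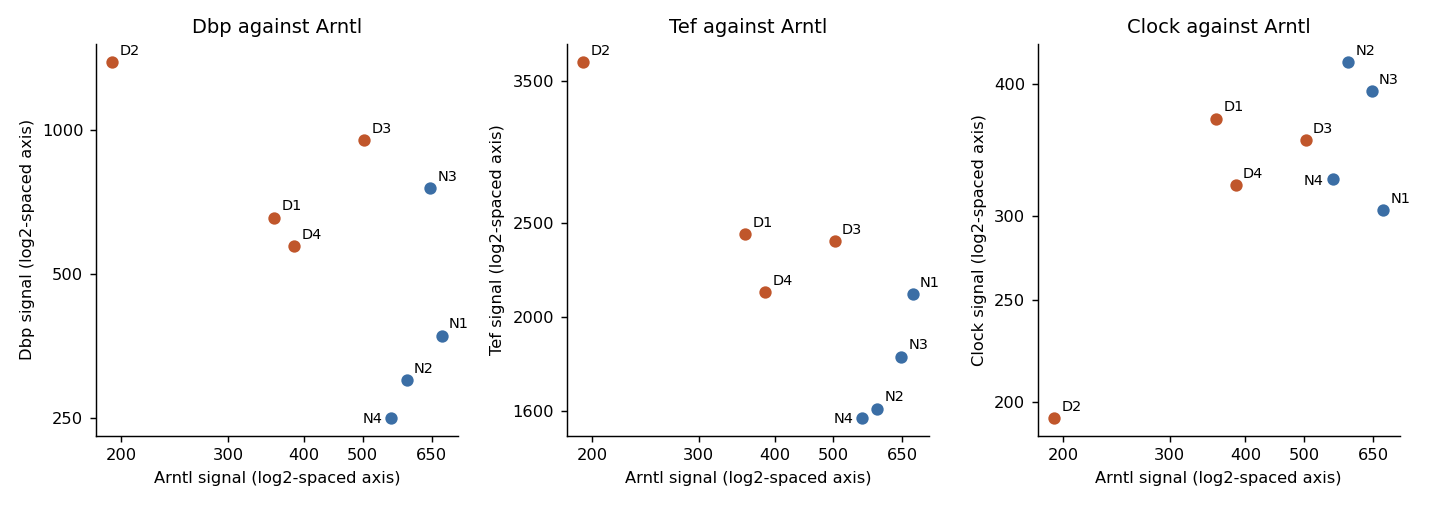
Signal of Dbp, Tef and Clock against Arntl in the 8 pools, on log2-spaced axes (N normal, blue; D dystrophic, orange; number, replicate). Pool D2 has the lowest Arntl and Clock and the highest Dbp and Tef.

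Among 8206 other genes tested, those whose brightest probe set was most like Arntl over the 8 pools were Dnph1, Ube2v2, Tmem37, Cdc42 and Myo5b, with Pearson r of 0.94, 0.92, 0.92, 0.92 and 0.91. Those most opposite were Psmd14, Lgmn, Tmx1, Tspan4 and Adamtsl4, with r of -0.99, -0.94, -0.94, -0.92 and -0.91. None of these 10 passed the test between groups. These r values are the extremes of a search over all genes and are a description of 8 pools that also differ by group. Lgmn, a lysosomal protease that macrophages express, had 416 to 633 in normal and 645 to 1422 in dystrophic pools.

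Further genes of the clock loop gave no call. Of 25 further loop genes, including the Cry2 repressor, the Ror activators, Bhlhe40 and the casein kinases that mark PER proteins for decay, 20 were measured and 14 tested, and 0 of 14 were called. Their median log2 difference was -0.05, beside -0.01 over all tested probe sets and 0.07 over the 8 members with a tested brightest probe set. At an unadjusted p under 0.05 there was 1, Nfil3, which encodes the repressor E4BP4 that competes with Dbp and Tef at D-boxes. Nfil3 gave 975, 1048, 573 and 661 in normal and 265, 518, 411 and 750 in dystrophic pools. Dystrophic replicate 4 lay inside the normal range and the other 3 below it, and the log2 difference was -0.77 (SE 0.29, limma adjusted p = 0.396). Hlf, the third PAR bZIP factor, was at 0.34 (SE 0.21, adjusted p = 0.658), and the kinase Gsk3b at -0.26 (SE 0.21, adjusted p = 0.748). Rora, an activator of Arntl, was at -0.12 (SE 0.20, adjusted p = 0.903).

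Of 20 genes known as outputs of the clock in muscle or metabolism, 18 were tested, 0 were called and the median was 0.01. The 3 with the largest differences, and no others of the 18, did not overlap between the groups, beside 6.4% of all tested probe sets. Id2, an inhibitor of basic helix-loop-helix factors, was at 1.07 (SE 0.32, limma adjusted p = 0.238), with 64.8 to 135 in normal and 136 to 404 in dystrophic pools. The tetraspanin Tspan4 was at 0.84 (SE 0.20, adjusted p = 0.125). Alas1, the first enzyme of haem synthesis, was at -0.45 (SE 0.14, adjusted p = 0.271). Myod1, the myogenic factor described as a target of ARNTL and CLOCK, was at 0.18 (SE 0.14, adjusted p = 0.749). Tcap, a titin-binding protein of the Z-disc, was at -0.12 (SE 0.15, adjusted p = 0.860).

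**Figure D5:**
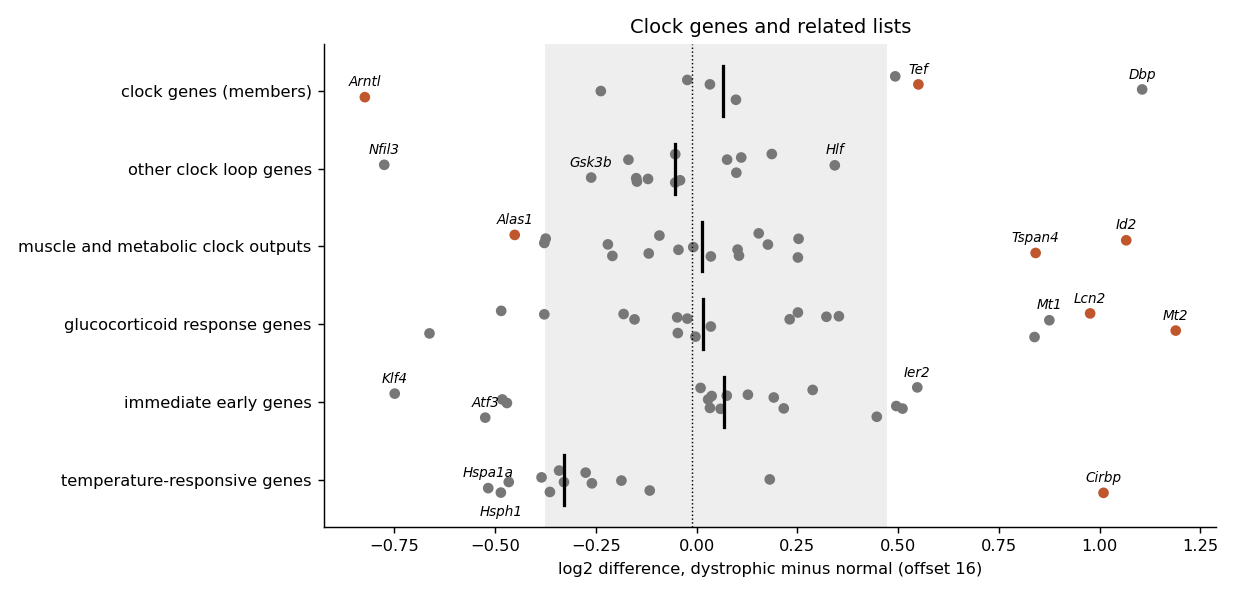
Log2 difference, dystrophic minus normal, of each tested gene (points) in the clock members and 5 related lists, with the list median (black bar), the median of all tested probe sets (dotted line) and their 5th to 95th percentiles (grey band, -0.37 to 0.47). Orange points are genes whose groups do not overlap, and no point passed the test.

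Lists of genes that respond to hormones, handling and temperature were read beside the clock genes, since these signals also reach the clock. Of 18 glucocorticoid response genes, which include Per1, all were tested and 0 were called, with a median of 0.02. In 5 of 21 alternatives 1 or 2 were called, among them Lcn2 and Fkbp5 without normal replicate 1 (limma adjusted p = 0.0107 and 0.0448) and Mt1 without normal replicate 4 (adjusted p = 0.0131). The metallothioneins Mt2 and Mt1 were at 1.19 (SE 0.32, limma adjusted p = 0.168) and 0.88 (SE 0.28, adjusted p = 0.288), and lipocalin 2 (Lcn2) at 0.98 (SE 0.20, adjusted p = 0.0743). Fkbp5, a classical glucocorticoid target, was at 0.84 and Sgk1 at -0.66, so members lay on both sides of 0. Of 20 immediate early genes 18 were tested and 0 called, with a median of 0.07. Klf4 was at -0.75 (SE 0.23, adjusted p = 0.270), Ier2 at 0.55 (SE 0.38, adjusted p = 0.703) and Atf3 at -0.52 (SE 0.28, adjusted p = 0.591). Of 13 measured temperature-responsive genes all were tested and 0 called, with a median of -0.33. The 2 above 0 were Serpinh1 and Cirbp. Cirbp, a cold-inducible RNA-binding protein known to affect clock transcripts, gave 344, 303, 426 and 206 in normal and 521, 618, 756 and 687 in dystrophic pools. The groups did not overlap, and Cirbp stood 1.01 higher on the log2 scale (SE 0.21, limma adjusted p = 0.0657) without passing the test, which it passed without normal replicate 3 (adjusted p = 0.0484). The heat shock genes Hspa1a, at -0.52 (SE 0.45), and Hsph1, at -0.49 (SE 0.34), varied widely within groups. The part of these genes, and of the macrophage, fibroblast and liver transcripts, in the clock gene values was not tested.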

How the data were processed

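The deposited intensity values are linear signals of 22690 probe sets on each of 8 arrays. MAS5, which scales every array by itself, made them, per the submitters' processing notes, which state no version of it. Arrays were rescaled to the mean of their 2% trimmed means, 487.7, since these differed by over 10%, and log2(signal + 16) was used. The offset shrinks changes of dim genes. The number of arrays limits the precision. Controls (64 probe sets) and the dimmest 40% (mean of log2 values) were dropped, leaving 13575. Symbols were updated through Entrez identifiers (20351 of 20380 matched RefSeq, GRCm38.p6).

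The test between groups was limma's (version 3.58.1, R 4.3.3; lmFit, eBayes with an intensity trend), Benjamini-Hochberg adjusted over 13575 probe sets, threshold 0.05. The script was tested on simulated data. Where 1 value per gene was needed, the brightest probe set stood for it; every member probe set is described. Named genes are all members, Lama2, every called gene and the 3 largest differences of each list, called genes of marker lists, and the 5 genes most like and most opposite to Arntl by Pearson r; Rora, Myod1, Tcap, Fkbp5, Sgk1 and Serpinh1 were named after their values were seen. Adipocyte, endothelial, red blood cell and Schwann cell markers had no called gene, with medians of 0.05, -0.27, -0.29 and 0.30. The members and lists were chosen with earlier results of these data known. Spike-in level groups were divided where sorted log2 means differed by over 0.5. The labels do not call the pools separate mice beyond their count, so p-values measure the spread between these pools. Plots used Python 3.11.15 and matplotlib 3.10.9. Alternatives covered offset, scaling, filter, variance settings, array weights, blocks and left-out pools.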

Additional observations from a re-analysis of the deposited data

Results flagged for a closer look

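One of 36 groups of 4 values, from 18 member probe sets in both groups, held a pool far from the others. For Tef probe set 1450184_s_at, normal replicate 4 was the lowest, and its gap to the next pool was 0.830 of the group's range on the log2 scale, just above Dixon's 95% critical value for 4 samples. The signal there was 19.99, no brighter than the TrpnX negative controls, which spanned 0.78 to 32.2, beside 290, 316 and 460 in the other normal pools. Chance marks about 1 in 20 such groups. The brightest Tef probe set gave 1574 in the same pool, beside 1610 to 2113 in the other normal pools.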

How the results depend on the processing

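The count of called member probe sets was 0 in each of 22 alternatives. The estimates of Arntl (-1.05 to -0.57), Dbp (0.85 to 1.42), Tef (0.39 to 0.71) and Per3 (0.32 to 0.59) kept their direction in every alternative that tested them. The dim Per3 probe set 1460662_at, with no test, had the opposite sign, at -0.36 to -0.09 over 14 alternatives. The count over all probe sets, 67, was 127 with array weights, 105 with the replicate block, 114 with the spike-in level group as a block, 31 without normal replicate 4 and dystrophic replicate 3 together, 24 at a threshold of 0.01, and 25 to 61 with 1 array left out (34, 29 and 25 without dystrophic replicates 2, 3 and 4). Same-numbered pools had correlated deviations of 0.484, -0.046, 0.145 and 0.133, and 2 of 4 correlated best with their own number. The main fit did not take the numbers as pairs, and the replicate block called 0 member probe sets. The numbers did carry shared structure, since same-numbered normal and dystrophic arrays always fell in the same spike-in level group. On the second principal component the replicate 1 arrays stood apart, at 33.87 (normal) and 25.95 (dystrophic), beside -16.82 to -2.48 for the remaining arrays. The cause of this structure was not tested.

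Estimates near 0 changed sign. Nr1d1 was at -0.044 with array weights and -0.12 without both pools, and -0.0633 to 0.18 with 1 array left out; Nr1d2 was at -0.0683 to 0.22 with 1 array left out, and its second probe set at -0.0057 without both pools. Per1 was at 0.0557 as deposited, 0.11 with array weights, 0.0903 without both pools and -0.20 to 0.22 with 1 array left out. The Tef probe set with the dim normal pool was at -0.0078 without both pools. Of the dim probe sets with no test, Cry1 was at -0.39 to 0.02, the second Per2 probe set at -0.29 to 0.44, Per3 probe set 1421086_at at -0.25 to 0.41 and Tef probe set 1438033_at at -0.26 to 0.07 over 14 alternatives each. The Pearson r of Arntl with Cry1 was 0.004 under the 75th percentile shift and -0.17 to 0.30 with 1 array left out. With 1 array left out, r with Per1 was -0.56 to 0.10, with Nr1d1 -0.21 to 0.70 and with Nr1d2 -0.76 to 0.18. Of the genes of related lists, Cirbp was called with array weights, the spike-in block and without normal replicate 3 (adjusted p = 0.0337, 0.0392 and 0.0484), Id2 under both blocks (0.0493 and 0.0285) and Klf4 under both blocks (0.0279 and 0.0183). In the glucocorticoid list, Mt1 was called with array weights, without normal replicate 4 and without both pools (0.0463, 0.0131 and 0.0486), Lcn2 with array weights and without normal replicate 1 (0.0209 and 0.0107), Fkbp5 without normal replicate 1 (0.0448) and Sgk1 under the spike-in block (0.0338). Called macrophage markers numbered 0 to 4 and fibroblast markers 1 to 3. The cause of these changes was not tested. Per2, Cry1 and 4 further probe sets were too dim for the test.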
